A study of Mus musculus with 9 samples.

Results

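The genes described here are kallikreins of the Klk1 cluster, measured in whole oviduct of CD1 females without hormonal stimulation. The oviduct is the tube in which fertilisation and the first days of embryo development take place. Total RNA was hybridised to 9 Affymetrix gene arrays in 3 groups of 3: sexually mature females in diestrus, sexually mature females in estrus, and sexually immature females of day 21, which the labels call controls. Each array carried pooled tissue of 5 animals, so the spread between arrays is a spread between pools. The labels give no age for the mature females and do not say how the stage of the cycle was read. Members were the probe sets annotated with at least 1 of 10 listed symbols: Klk1, Klk1b3, Klk1b4, Klk1b5, Klk1b8, Klk1b11, Klk1b21, Klk1b22, Klk1b24 and Klk1b27. The platform's annotation gave 6 such probe sets among 28214, for Klk1b5, Klk1b8, Klk1b11, Klk1b22, Klk1b24 and Klk1b27. Each of the 6 carried 1 symbol, and 0 probe sets with several symbols held a listed one. The other 4 symbols had no annotated probe set and were not analysed here.

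Tissue kallikreins are secreted serine proteases with trypsin-like or chymotrypsin-like cleavage. Klk1 itself is the kallikrein that cuts kinins, short peptides acting on vessels and smooth muscle, out of kininogens. In the mouse this gene stands beside a large family of copies, the Klk1b genes, many of which are known from the submandibular salivary gland, where androgens raise them. Klk1b22 is known as an epidermal growth factor binding protein, and Klk1b24 and Klk1b27 as proteases of the mouse testis. The list was chosen with results from these same 9 arrays in view, among them the higher Klk1b11 intensity in diestrus than in immature oviduct, and which other values entered the choice is not recorded. All differences of the 6 members are therefore descriptions. Counts of members past a p threshold are printed only beside the share of all probe sets past it, and are no test of the members.

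The copies are alike in sequence also upstream of their genes, as the RefSeq promoters (build GRCm38.p6, plus strand of chromosome 7) of the 6 members show. The 60 bases before each annotated start are shown because the same 6 letters, in capitals, stand in every one of them.
Klk1b11: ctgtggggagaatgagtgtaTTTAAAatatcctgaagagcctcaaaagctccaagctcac
Klk1b27: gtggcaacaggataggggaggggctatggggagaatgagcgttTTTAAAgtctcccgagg
Klk1b24: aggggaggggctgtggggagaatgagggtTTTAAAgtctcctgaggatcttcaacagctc
Klk1b5: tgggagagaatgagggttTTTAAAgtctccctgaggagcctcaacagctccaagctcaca
Klk1b8: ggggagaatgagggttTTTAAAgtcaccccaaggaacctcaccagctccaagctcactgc
Klk1b22: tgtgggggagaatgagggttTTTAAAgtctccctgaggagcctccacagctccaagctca

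These stretches lie at chr7:43995817-43995876 for Klk1b11, chr7:44052230-44052289 for Klk1b27, chr7:44188176-44188235 for Klk1b24, chr7:44216414-44216473 for Klk1b5, chr7:43950606-43950665 for Klk1b8 and chr7:44112613-44112672 for Klk1b22. The capitals mark TTTAAA on the gene strand. Within the 50 bases before the start it was found in all 6, against 2.37% of 32851 mouse promoters in the same table. Within 250 bases before the start, TTTAAA stood in 12.1% of all promoters. The usual TATA box letters, TATAAA on the gene strand, stood in 0 of the 6 windows of 250 bases and in 7.59% of all. AGGTCA, a core element of estrogen receptor sites, was found on either strand in 5 of 6, all but Klk1b11, against 14.02% of all promoters. AGAACA, a core element of androgen and glucocorticoid receptor sites, was found on either strand in Klk1b24 alone, against 16.1%. CCAAT was found on either strand in Klk1b8, Klk1b11 and Klk1b24, against 33.8%. Such matches are descriptions of letters, and as copies of one gene the members are not independent of each other.

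Over the 250 bases before the start, the 15 pairs of members were identical at 65.4% to 82.6% of alignment columns. The lowest was Klk1b8 and Klk1b27, and the highest Klk1b27 and Klk1b24. Columns with a gap count as differences, so identity over aligned bases alone was higher. On the chromosome the 6 members stand in the order Klk1b8, Klk1b11, Klk1b27, Klk1b22, Klk1b24 and Klk1b5, with other Klk1b genes between them. Because the transcripts are paralogs, a probe set named for one copy can also take up RNA of another. The probe sequences were not used here, and how far this happened was not measured.

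Klk1b11 had the largest difference of the 6 between diestrus and immature oviduct. Its log2 intensity was 9.08, 9.77 and 9.48 on the diestrus arrays, 8.59, 9.09 and 8.65 on the estrus arrays, and 8.53, 8.38 and 8.13 on the immature arrays. The 3 diestrus values lay above the 3 immature ones with a gap of 0.55. Estrus and immature values also lay apart, by 0.06, whereas diestrus 1 and estrus 2 met within 0.01. Means were 9.44 ± 0.35 in diestrus, 8.78 ± 0.27 in estrus and 8.35 ± 0.20 in immature oviduct (SD, n = 3 each). The difference was 1.09 ± 0.19 (SE) for diestrus minus immature, or 2.13-fold in intensity, 0.43 ± 0.19 for estrus minus immature and 0.66 ± 0.19 for diestrus minus estrus. All 3 immature values lay below the median of their arrays. With no detection call at hand, a fold of intensity may understate the fold of RNA at such levels.

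Klk1b27, one of the kallikreins known from testis, ordered the groups in the same way with smaller steps. It stood at 9.39, 9.67 and 9.39 in diestrus, at 9.13, 9.39 and 9.33 in estrus and at 9.08, 8.62 and 8.60 in immature oviduct. Both mature groups lay wholly above the immature one, and they overlapped each other. Diestrus exceeded immature oviduct by 0.72 ± 0.14 (SE), a 1.65-fold intensity, and estrus exceeded it by 0.52 ± 0.14. Between diestrus and estrus the difference was 0.20 ± 0.14. Immature 1 was above the median of its array, and the other 2 immature values were below theirs.

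Klk1b24, also known from testis, had the widest range of the 6, 2.06 over the 9 arrays. Its values were 9.06, 9.10 and 9.02 in diestrus, 9.15, 10.03 and 9.00 in estrus, and 9.15, 8.58 and 7.97 in immature oviduct. Diestrus was tight (SD 0.04), while estrus (SD 0.56) and immature oviduct (SD 0.59) were spread widely, and no pair of groups lay apart. The difference from immature oviduct was 0.49 ± 0.31 (SE) for diestrus and 0.83 ± 0.31 for estrus. Single arrays moved both: for diestrus it was 0.20 without immature 3 and 0.78 without immature 1, and for estrus 0.53 without immature 3 and 0.51 without estrus 2. For diestrus minus estrus it was -0.33 ± 0.31, and -0.02 without estrus 2. The higher mean in estrus than in diestrus thus lay mostly in that array.

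**Figure D1:**
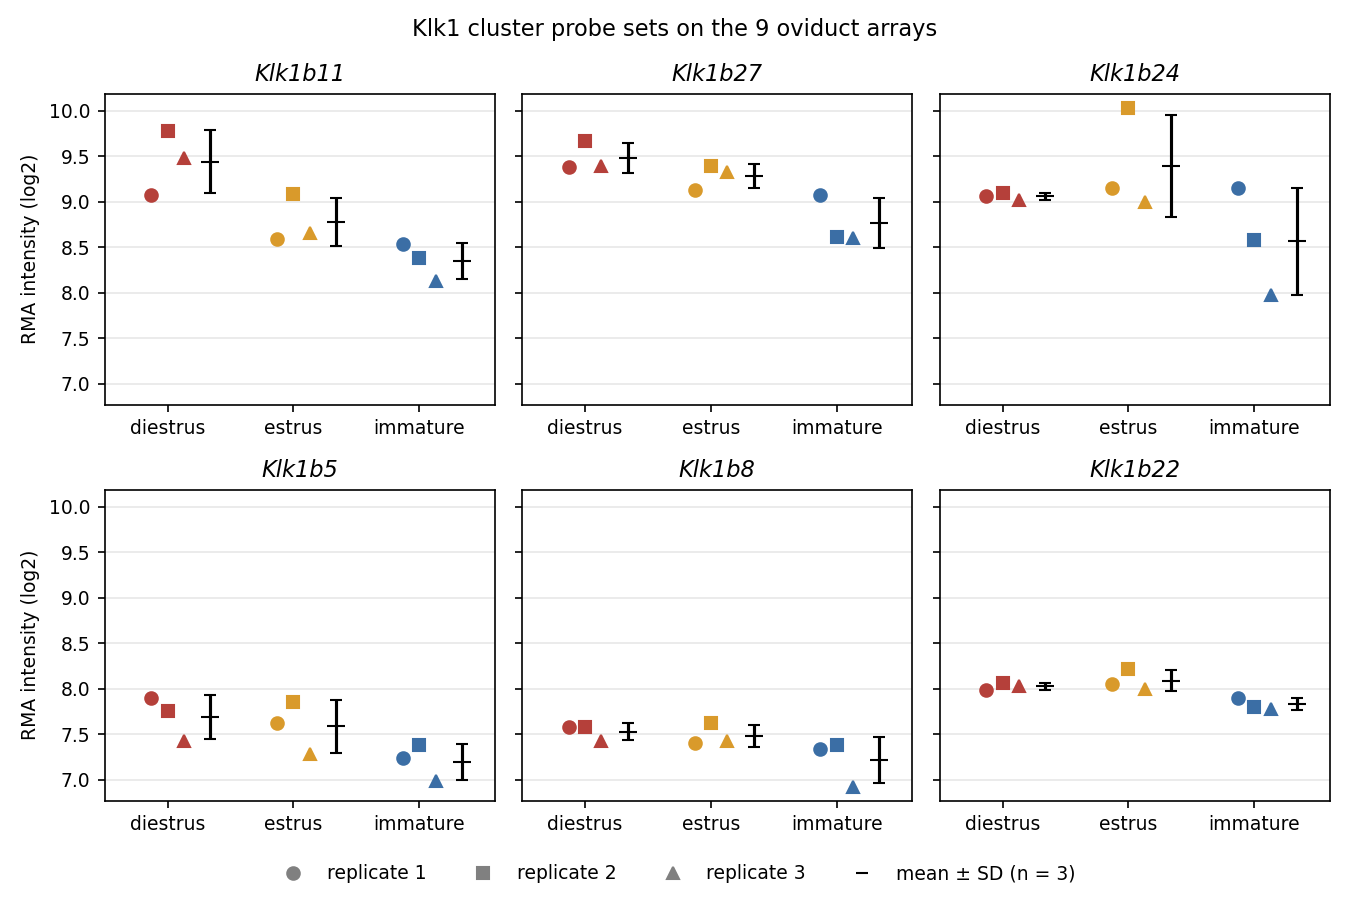
Log2 RMA intensity (vertical axis) of the 6 member probe sets on the diestrus, estrus and immature arrays. Points are arrays (pools of 5 animals), and bars beside them are mean ± SD of 3. In Klk1b11 and Klk1b27 both mature groups lie above the immature group, and in Klk1b24 the estrus 2 array stands at 10.03 while all 3 diestrus arrays lie between 9.02 and 9.10.

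The remaining 3 members were dim: Klk1b5, Klk1b8 and Klk1b22 lay below the median of the array on all 9 arrays. Klk1b8 lay below the lower quartile of the array on 8 of 9 and Klk1b5 on 6 of 9. No detection call was available. Klk1b5 had 7.89, 7.76 and 7.42 in diestrus, 7.63, 7.86 and 7.28 in estrus and 7.24, 7.38 and 6.98 in immature oviduct. Its 3 diestrus values cleared the immature ones by 0.05, and its estrus values overlapped them. The differences from immature oviduct were 0.49 ± 0.17 (SE) in diestrus and 0.39 ± 0.17 in estrus.

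Klk1b8 stood at 7.59, 7.58 and 7.43 in diestrus, at 7.40, 7.63 and 7.43 in estrus and at 7.34, 7.38 and 6.93 in immature oviduct. The mature arrays were all above the immature ones, by as little as 0.02. Klk1b22, the growth factor binding protein, had the narrowest range, 0.44 over all arrays, with 7.99, 8.06 and 8.04 in diestrus, 8.06, 8.22 and 7.997 in estrus and 7.90, 7.80 and 7.78 in immature oviduct. Its mature and immature values did not overlap either. For Klk1b8 the difference from immature oviduct was 0.32 ± 0.12 in diestrus and 0.27 ± 0.12 in estrus, and for Klk1b22 it was 0.20 ± 0.07 and 0.26 ± 0.07 (SE). Without immature 3 the differences of Klk1b8 were 0.17 in diestrus and 0.12 in estrus.

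Set side by side, the means of all 6 members were higher in both mature groups than in immature oviduct, where 53.6% (diestrus) and 54.9% (estrus) of all probe sets had a higher mean. The median difference was 0.49 for diestrus minus immature, beside 0.01 over all probe sets, and 0.41 for estrus minus immature, again beside 0.01. These comparisons share the 3 immature arrays. For diestrus minus estrus it was 0.07, beside -0.01 over all probe sets, with 4 members higher (46.9% of all) and 2 lower. With limma p-values adjusted by Benjamini and Hochberg's method across the whole array and a threshold of 0.05, Klk1b11 and Klk1b27 were called higher for diestrus minus immature, 2 of 6, where 0.294% of all probe sets were called higher and 1.00% in either direction. All but Klk1b24, 5 of 6, were under 0.05 unadjusted, as were 13.4% of all. For estrus minus immature 0 of 6 were called, where 0.0851% of all probe sets were called and 0.0319% called higher. All 6 had an unadjusted p under 0.05, as had 6.52% of all. For diestrus minus estrus 0 of 6 were called where 0.159% of all were called and 0.0673% called higher. Klk1b11 alone was under 0.05 unadjusted, as were 9.33% of all. Without overlap, 5 of 6 lay higher in diestrus than in immature oviduct (7.52% of all probe sets), and 4 of 6 in estrus (3.19%). Between diestrus and estrus 0 of 6 lay higher (4.93%). Since the list was chosen with these contrasts known, the counts describe it and support nothing further.

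The arrays within a group were not alike for these genes. Immature 3 was the lowest of the 9 arrays in all 6 members, and estrus 2 the highest in 3 of them (Klk1b24, Klk1b22 and Klk1b8). Without immature 3 the median difference was 0.29 for diestrus minus immature and 0.30 for estrus minus immature, and the mean of every member stayed higher in the mature groups. Without immature 3, neither Klk1b11 nor Klk1b27 was called in diestrus minus immature, with differences of 0.99 and 0.64. Over all probe sets 52 were called in that setting, beside 282 with all arrays. Nor was either gene called without immature 2, estrus 1, estrus 3 or diestrus 2, each left out alone. The lost calls are therefore not particular to immature 3. Without estrus 2 the median for estrus minus immature was 0.27, with 0.28 for Klk1b11 and 0.26 for Klk1b5.

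Across the 9 arrays the 15 pairs of members correlated at Pearson's r of 0.52 (Klk1b11 and Klk1b24) to 0.90 (Klk1b22 and Klk1b24), with a median of 0.75. The pairs share the same arrays, groups and normalization, and their probes target similar sequences, so these values are descriptions. The pair with the highest promoter identity over alignment columns, Klk1b27 and Klk1b24, had an r of 0.69. The lowest, Klk1b8 and Klk1b27, had an r of 0.78. Gaps lower the latter identity, since the annotated starts are offset: TTTAAA begins at -44 from the start in Klk1b8 and at -17 in Klk1b27. The ranking is therefore not one of likeness over aligned bases alone.

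Ovarian genes differed between pools and are set beside these values. The mean log2 intensity of 10 ovary markers (of 12 listed) was 8.01, 9.47 and 8.63 in diestrus, 8.14, 8.14 and 7.99 in estrus, and 8.01, 9.09 and 7.97 in immature oviduct. Diestrus 2 thus had the highest ovary marker mean and the highest Klk1b11 and Klk1b27 values. On diestrus 1 the marker mean was 8.01 and Klk1b11 9.08, and on immature 2 they were 9.09 and 8.38. With immature 2 and diestrus 2 left out together, the difference of Klk1b11 for diestrus minus immature was 0.95 and that of Klk1b27 was 0.55. Neither was called in that setting, which called 10 of 28214 probe sets, beside 282 with all 9 arrays. The steroidogenic regulator Star, in the same list, rose in diestrus against immature oviduct by 0.74 ± 0.14 (SE; limma adjusted p = 0.0463), the single ovary marker called in any of the 3 comparisons. The part of ovarian RNA in the member values was not tested.

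**Figure D2:**
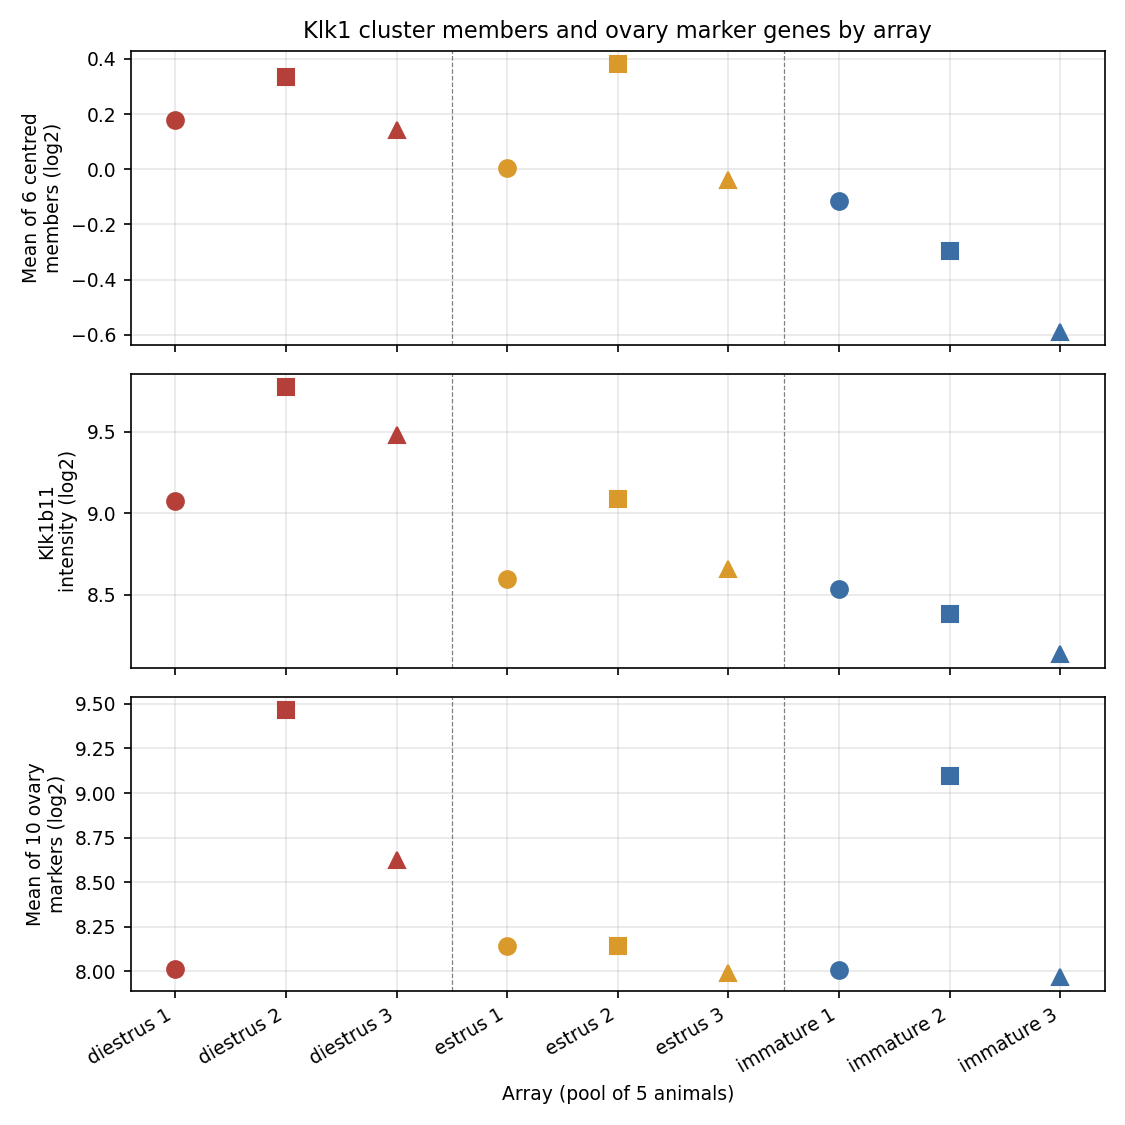
For each array (horizontal axis), the mean of the 6 members after centring each on its own mean (top), the log2 intensity of Klk1b11 (middle) and the mean log2 intensity of 10 ovary markers (bottom). Ovary markers are high on diestrus 2 and immature 2, whereas the member mean is high on estrus 2 and diestrus 2 and lowest on immature 3.

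Markers of other tissues are set beside the members in the same way. Means of 12 salivary gland markers lay between 7.81 and 7.99 in diestrus, 7.63 and 7.85 in estrus and 7.85 and 7.90 in immature oviduct. Of the 12, 0 were called in any comparison, where 0.0851% to 1.00% of all probe sets were called. These means mix unlike genes, with 3 of 12 above the median of all values. Dcpp1 averaged 13.23 over the 9 arrays. Dcpp2, named after its values were seen, averaged 7.49 in diestrus, 6.26 in estrus and 7.98 in immature oviduct. For 9 mast cell markers, a cell type rich in other serine proteases, the means lay between 7.89 and 7.98 in diestrus, 7.94 and 8.04 in estrus and 7.99 and 8.03 in immature oviduct, and 0 of 9 were called. These means also mix unlike genes, with 2 of 9 above the median of all values. Hdc averaged 12.42 and Kit 10.07 over the 9 arrays, and Hdc was lowest on diestrus 3, at 11.85. For 10 uterus and muscle markers the mean reached 10.34 on diestrus 3, with 9.66 on both other diestrus arrays, 9.65 to 9.72 in estrus and 9.64 to 9.77 in immature oviduct. All 11 measured oviduct markers had means above the median of all probe sets. Their part in the kallikrein values was not tested. In whole tissue, more cells of a type and more RNA per cell cannot be told apart.

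The rest of the Klk1 cluster was not on the list and was tested in the same limma fit. Of 5 further probe sets 0 passed at a limma adjusted p under 0.05 in any of the 3 comparisons. Over all probe sets 0.0851% to 1.00% passed. All 5 had higher means in both mature groups than in immature oviduct, as had 53.6% (diestrus) and 54.9% (estrus) of all. Klk1b1 stood at 5.97, 7.06 and 6.30 in diestrus, 5.98, 6.43 and 5.86 in estrus and 5.76, 5.91 and 5.55 in immature oviduct, a difference of 0.70 ± 0.25 (SE) for diestrus minus immature (limma adjusted p = 0.257). The transcribed pseudogene Klk1b7-ps differed by 0.49 ± 0.16 in diestrus and 0.45 ± 0.16 in estrus from immature oviduct (limma adjusted p = 0.221 and 0.633). Klk1b9, another epidermal growth factor binding protein, differed by 0.18 ± 0.09 in diestrus (limma adjusted p = 0.45), and Klk1b16, known as gamma-renin, by 0.20 ± 0.09 (limma adjusted p = 0.385). The 1 probe set with several symbols was annotated to Klk1b26 and Egfbp2, which RefSeq lists as 2 names of one gene, whose product is known to cut prorenin. It had 8.36, 8.15 and 8.11 in diestrus, 8.23, 8.28 and 8.12 in estrus and 8.03, 8.02 and 7.64 in immature oviduct, and differed by 0.31 ± 0.11 in diestrus and 0.32 ± 0.11 in estrus (limma adjusted p = 0.252 and 0.6). Immature 3 was again the lowest for Klk1b1, Klk1b7-ps and this probe set. These 5 probe sets can share RNA with the 6 members and are no independent support for them. Of the 5, Klk1b1 and Klk1b16 were dim, below the lower quartile of the array on all 9 arrays, with no detection call at hand.

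Klk4 to Klk15, the kallikreins outside the Klk1 cluster that act in skin, teeth and nervous tissue among others, are given for comparison. Of the 12 genes 0 were called in any of the 3 comparisons, where 0.0851% to 1.00% of all probe sets were called. Their median difference was 0.06 for diestrus minus immature, 0.04 for estrus minus immature and 0.01 for diestrus minus estrus. The largest in size were 0.17 ± 0.11 for Klk15 in estrus minus immature and -0.12 ± 0.07 for Klk8 (neuropsin) in diestrus minus immature (limma adjusted p = 0.844 and 0.476). Of the 12, 4 had lower means in diestrus than in immature oviduct, where 53.6% of all probe sets had a higher mean. Klk11, an example, stood at 9.79, 9.90 and 9.49 in diestrus, 9.64, 9.79 and 9.69 in estrus and 9.86, 9.69 and 9.87 in immature oviduct, groups that overlapped.

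**Figure D3:**
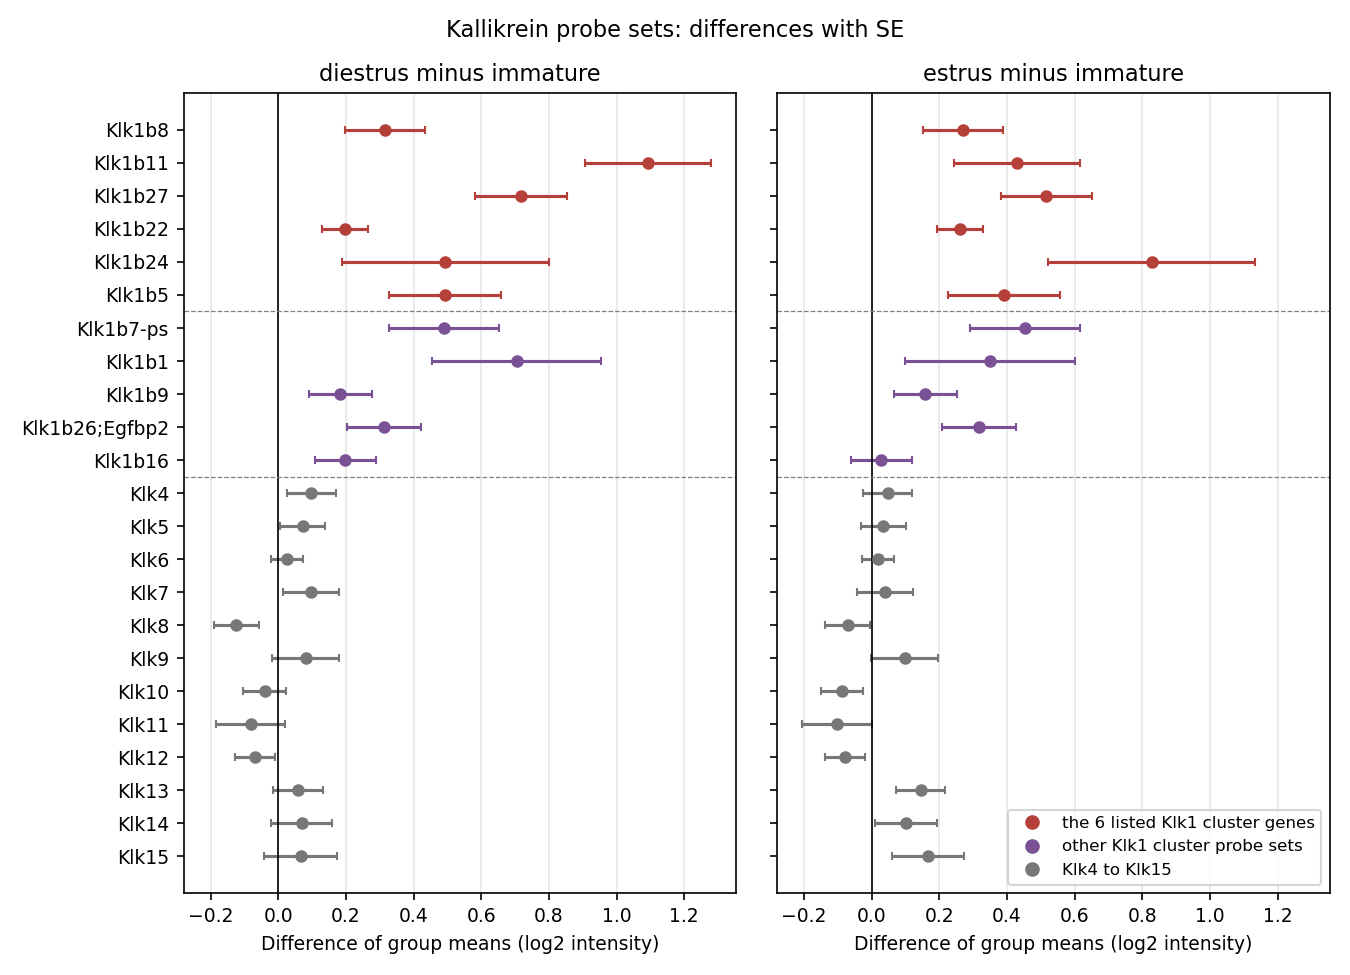
Difference of group means in log2 intensity (horizontal axis) with its standard error, for diestrus minus immature (left) and estrus minus immature (right). The 6 listed members lie between 0.20 and 1.09 on the left, the 5 other Klk1 cluster probe sets between 0.18 and 0.70, and Klk4 to Klk15 between -0.12 and 0.10.

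Genes that act with kallikreins were examined as lists, with 0 calls in any comparison for each of them. Over all probe sets 0.0851% to 1.00% were called. Of the kinin system 15 of 17 listed genes were measured, with a median difference of 0.11 for diestrus minus immature. Mme, neprilysin, a peptidase that breaks down kinins, stood at 11.29 in diestrus and 10.32 in immature oviduct on average, a difference of 0.97 ± 0.20 (SE; limma adjusted p = 0.0602). The carboxypeptidase gene Cpd differed by 0.12 ± 0.06 and the endothelin converting enzyme gene Ece1 by -0.04 ± 0.08 in the same comparison (limma adjusted p = 0.461 and 0.876). Among 16 measured inhibitors of serine proteases (of 24 listed), 14 had a higher mean in diestrus than in immature oviduct, with a median difference of 0.09. Of all probe sets 53.6% had a higher mean in that comparison. Serpina1c, an alpha-1-antitrypsin gene named here after its values were seen, had 10.51, 9.94 and 9.40 in diestrus and 8.28, 7.07 and 8.29 in immature oviduct, groups that did not overlap. Its difference was 2.07 ± 0.42 (SE; limma adjusted p = 0.0613). Spint2 and Spint1, Kunitz inhibitors of epithelial proteases, differed by -0.01 ± 0.08 and 0.00 ± 0.11 (limma adjusted p = 0.975 and 0.993).

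Of 18 epithelial serine proteases (20 listed), Plat, tissue plasminogen activator, differed by 0.16 ± 0.20, the prostasin gene Prss8 by -0.04 ± 0.12 and the matriptase gene St14 by -0.15 ± 0.07 for diestrus minus immature (limma adjusted p between 0.396 and 0.936). Over 9 growth factor partners (13 listed), the median difference from immature oviduct was 0.01 in diestrus and -0.01 in estrus. For Igfbp3, a carrier of insulin-like growth factors, it was -0.32 ± 0.10 and -0.61 ± 0.10 (limma adjusted p = 0.201 and 0.0931). Igfbp5, the brightest of the 9, averaged 12.27 in diestrus, 12.10 in estrus and 12.30 in immature oviduct. Of 6 listed steroid receptors, 5 were measured and 0 called. The androgen receptor was not among the 5. Against immature oviduct, Nr3c2, the mineralocorticoid receptor, differed by 0.22 ± 0.08 in diestrus, Pgr, the progesterone receptor, by -0.13 ± 0.11 in diestrus and 0.18 ± 0.11 in estrus, and Esr2, an estrogen receptor, by -0.26 ± 0.19 in estrus (SE; limma adjusted p between 0.264 and 0.854). Esr2 values were 8.155, 8.953 and 8.119 on the immature arrays and 8.087, 8.147 and 8.211 on the estrus arrays. The Esr2 difference thus lay in immature 2. Esr1 averaged 12.53 in diestrus, 12.61 in estrus and 12.54 in immature oviduct, and Nr3c1, the glucocorticoid receptor, 9.65, 9.66 and 9.71. The differences of Esr1 and Nr3c1 from immature oviduct were at most 0.07 in size (limma adjusted p at least 0.831).

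Genes whose pattern was most like that of the members were taken from 10456 genes brighter than the median. The highest Pearson's r over the 9 arrays with the mean of the 6 centred members was 0.97, for Alcam, an adhesion molecule of the immunoglobulin family. It was followed by the chemokine gene Ccl6 (0.94), Ccng1 (0.94), Dmrta1 (0.93), Ctnnal1, Myof, Sh3yl1 and Ccdc167 (0.92 each). Alcam averaged 12.13 in diestrus, 12.07 in estrus and 11.90 in immature oviduct, and Ccl6 10.06, 9.77 and 9.35. The genes most like Klk1b11 alone were Rabac1 (0.99), Dkk3, App, Asap2 and Hmox1 (0.95 to 0.96). None of these 5 was among the 8 nearest to the member mean. Each r is the highest of many on 9 shared arrays and serves as a description.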

How the data were processed

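Total RNA of 9 oviduct pools was measured on Affymetrix arrays. The authors deposited 1 value per probe set and array, made with RMA in Affymetrix Expression Console per the submitters' processing notes. These deposited values were taken as log2, the scale RMA gives, which their range fits. Neither a software version nor a genome build is given in the sources used here. Array medians lay between 8.85 and 8.90. The number of arrays limits the precision, with a median standard error of a difference of 0.08. One limma model (version 3.58.1, R 4.3.3; lmFit, then eBayes; 3 groups, 6 residual degrees of freedom, two-sided) covered all 28214 probe sets, with Benjamini-Hochberg adjustment over all of them. By the annotation of the platform, 21640 probe sets had 1 symbol, 1321 several and 5253 none. For genes outside the members the probe set with the highest mean stood for the gene.

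The members and lists were chosen with earlier results of these data known. All members are named; of other lists, calls (at most 4 per comparison by size) and up to 3 bright genes not called, and all kallikreins and steroid receptors may be named. The genes of like pattern are the 8 (for Klk1b11 alone, 5) with the highest correlation, without predicted gene models, small RNAs and chemosensory receptors. Motifs were searched in the 250 bases before each RefSeq start, and promoter pairs were aligned globally with Biopython 1.88. On simulated data with 200 probe sets changed in diestrus, 182 were recovered for diestrus minus immature and 180 for diestrus minus estrus, with 13 and 10 false calls. Every planted change was larger than the diestrus minus immature differences of Klk1b5, Klk1b8, Klk1b22 and Klk1b24. Recovery at the size of those differences was not examined. Alternatives were the block, a filter on low values, array weights, median centring, a robust prior with an intensity trend, cyclic loess, fewer arrays or probe sets, and each array left out.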

Additional observations from a re-analysis of the deposited data

How the results depend on the processing

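The member medians kept their direction for diestrus minus immature and estrus minus immature in all 18 alternatives. For diestrus minus immature the median was 0.72 among the 3 members that passed a filter on low values, fewer members by construction, and 0.29 to 0.65 with 1 array left out. For estrus minus immature it was 0.27 to 0.49 with 1 array left out, and 0.23 with array weights. For diestrus minus estrus it was -0.02 to 0.18 with 1 array left out, so that its direction turned without estrus 3. With array weights it was 0.18 and all 6 members were higher in diestrus than in estrus. Klk1b22 (0.03) and Klk1b24 (0.03) turned sign there, and Klk1b11 (0.86) and Klk1b5 (0.44) were called, where 3331 of 28214 probe sets were called. Klk1b27 (0.52) was called for estrus minus immature in that setting, where 1023 of all probe sets were called. Klk1b22 also turned without estrus 2 (0.0017), and Klk1b5 without estrus 3 (-0.05) and without diestrus 1 (-0.0002). Klk1b11 was called for diestrus minus immature in 10 of 18 alternatives and Klk1b27 in 6 of 18, and in 3 and 2 of the 9 settings that left out 1 array. Over all probe sets the 18 alternatives called 10 to 1288 in that comparison. Arrays of the same replicate number correlated at -0.29 to 0.17 in their deviations from the group means, over 0.1 in 3 of 9 pairs, so the numbers do not pair the arrays. With the replicate block, which called 121 of all probe sets for diestrus minus immature, Klk1b11 was still called and Klk1b27 was not.

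Over all probe sets, calls numbered 24 for estrus minus immature, 282 for diestrus minus immature and 45 for diestrus minus estrus. With the replicate block they were 4, 121 and 13. With array weights, where estrus 3 weighed 8.16 and estrus 2 weighed 0.32, they were 1023, 1288 and 3331. With immature 2 and diestrus 2 left out together they were 2, 10 and 0 (1702 at an unadjusted p under 0.05 in limma for the last). With only the arrays compared, diestrus minus immature had 85 and diestrus minus estrus 0 (2256 unadjusted, limma). With only 1-symbol probe sets estrus minus immature had 12 and diestrus minus estrus 91. Cyclic loess gave 5 for estrus minus immature and moved the split for diestrus minus immature to 82 higher and 123 lower, beside 83 and 199. The filter on low values gave 129 for diestrus minus estrus. Leaving out 1 array gave 1 to 95, 41 to 533 and 1 to 105 calls in the 3 comparisons. Apart from the fewer probe sets or arrays, the cause was not tested. Medians over member probe sets with several symbols could not be computed, since there were 0.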
